A study of Homo sapiens with 18 samples.

Results

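Integrins are the cell's receptors for the extracellular matrix, and the data described here are the RNA levels of 10 integrin subunit genes in MDA-MB-231 cells, a human triple-negative breast cancer line. The genes are the alpha subunits ITGA1, ITGA2, ITGA3, ITGA5, ITGA6 and ITGAV and the beta subunits ITGB1, ITGB3, ITGB4 and ITGB5. They were taken as a list, by gene symbol, from the 60709 genes of the deposited count table, and all 10 passed the filter on low counts. The 18 libraries form 6 groups of 3. The cells carried a short hairpin either against IGFBP6, which encodes an insulin-like growth factor binding protein (sh-IGFBP6, labelled as IGFBP6 knockdown), or against luciferase (sh-LUC, labelled WT). Cells were plated at 800000 per well in medium with serum. After 24 h the cells of each line received 200 μM docosahexaenoic acid (DHA, an omega-3 polyunsaturated fatty acid) in ethanol with 0.5% DMSO, or 2.5 μM erastin (an inhibitor of cystine import that is used to induce ferroptosis) in DMSO with 0.5% ethanol, or, as control, 0.5% DMSO with 0.5% ethanol, in each case for another 24 h. Each hairpin is represented by 1 line, so the knockdown and any other difference between the lines cannot be told apart. The labels do not say whether a line is a clone, and give no statement on whether replicate libraries are independent cultures. The p-values here therefore reflect the spread among these libraries, which may be technical.

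An integrin is a pair of 1 alpha and 1 beta subunit, and the pair sets which ligand is bound. ITGB1 pairs with most alpha subunits. ITGA1 and ITGA2 with ITGB1 bind collagens, ITGA3 and ITGA6 with ITGB1 bind laminins, and ITGA6 with ITGB4 binds laminin in hemidesmosomes, where it links to keratin filaments. ITGA5 with ITGB1 is the classical fibronectin receptor, and ITGAV with ITGB3 or ITGB5 binds vitronectin and other ligands with an Arg-Gly-Asp motif. In breast carcinoma cells these receptors serve adhesion, migration and survival signalling through talin, kindlin and focal adhesion kinase.

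Libraries held 609936 to 7977429 gene counts. The library sh-IGFBP6 erastin replicate 3 stood apart, with 54.4% of its counts on the 2 mitochondrial ribosomal RNA genes against 0.0349% to 0.504% in the other 17 libraries, which left 278278 counts for all other genes. In that library ITGB3 had 0 counts and ITGA1, ITGB4 and ITGB5 had 8 counts each. Leaving it out changed no call for the 10 genes in the 3 comparisons that use it, and moved none of their log2 values by more than 0.070. IGFBP6 itself stood at 0.602, 1.35 and 2.22 CPM in sh-IGFBP6 control cells, against 20.9, 20.1 and 17.3 CPM in sh-LUC control cells. All 5 basal markers of this line (VIM, CD44, AXL, MSN and CAV1) were expressed, with a summed level of 3297 to 3884 CPM in sh-IGFBP6 libraries and 4848 to 5265 CPM in sh-LUC libraries. The 6 luminal markers summed to 22.8 to 45.2 CPM, and the 5 leukocyte, 4 endothelial and 3 platelet markers to at most 4.95, 9.34 and 1.07 CPM. The 4 fibroblast markers (PDGFRA, PDGFRB, DCN and LUM), of which 1 passed the filter on low counts, moved as a sum with the line and the treatment. They summed to 0.903 to 1.54 CPM in sh-IGFBP6 control libraries against 32.8 to 39.3 CPM in sh-LUC control libraries, and to 0 to 0.901 CPM in treated sh-IGFBP6 against 11.6 to 17.1 CPM in treated sh-LUC libraries. Their part in the results below was not tested. In RNA from whole cultures, fewer cells of a type and less RNA per cell cannot be told apart.

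The genes lie on 6 chromosomes (GENCODE release 29, GRCh38). ITGA1 spans chr5:52787896-52959210 (plus strand) and ITGA2 lies next to it at chr5:52989326-53094779 (plus strand). ITGA6 is at chr2:172427354-172506282 (plus strand) and ITGAV at chr2:186590065-186680901 (plus strand). ITGA3, ITGB3 and ITGB4 lie on chromosome 17, at chr17:50055968-50090481 (plus strand), chr17:47253846-47311816 (plus strand) and chr17:75721328-75757818 (plus strand). ITGA5 is at chr12:54395261-54419460 (minus strand), ITGB1 at chr10:32900319-33005792 (minus strand) and ITGB5 at chr3:124761948-124901418 (minus strand). RefSeq (GRCh38.p14) promoter windows were matched by symbol for 7 of the 10 genes. The 250 bases before the most upstream RefSeq start are printed for 4 alpha subunits. ITGA2, ITGA5 and ITGAV are shown because their RNA was higher with DHA in both lines, and ITGA6 because its RNA moved in opposite directions. Sequences run 5′ to 3′ along the gene's strand, and capitals mark matches, on either strand, to the GC box (GGGCGG, bound by SP factors) and the TATA box (TATAAA).
ITGA2 promoter (chr5:52989102-52989351, plus strand): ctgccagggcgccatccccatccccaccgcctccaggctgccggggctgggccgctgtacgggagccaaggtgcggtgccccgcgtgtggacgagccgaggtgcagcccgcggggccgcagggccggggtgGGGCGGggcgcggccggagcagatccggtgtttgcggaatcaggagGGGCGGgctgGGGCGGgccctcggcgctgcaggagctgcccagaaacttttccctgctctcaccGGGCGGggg
ITGA5 promoter (chr12:54419267-54419516, minus strand): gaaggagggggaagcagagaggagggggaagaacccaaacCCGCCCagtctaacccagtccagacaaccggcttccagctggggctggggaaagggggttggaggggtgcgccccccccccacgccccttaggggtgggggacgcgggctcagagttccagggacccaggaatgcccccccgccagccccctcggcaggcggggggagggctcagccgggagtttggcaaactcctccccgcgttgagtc
ITGAV promoter (chr2:186589806-186590055, plus strand): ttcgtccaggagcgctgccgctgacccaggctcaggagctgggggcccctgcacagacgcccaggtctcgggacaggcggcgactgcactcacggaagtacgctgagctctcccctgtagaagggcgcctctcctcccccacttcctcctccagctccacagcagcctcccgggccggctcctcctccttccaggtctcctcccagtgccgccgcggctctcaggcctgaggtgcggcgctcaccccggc
ITGA6 promoter (chr2:172427086-172427335, plus strand): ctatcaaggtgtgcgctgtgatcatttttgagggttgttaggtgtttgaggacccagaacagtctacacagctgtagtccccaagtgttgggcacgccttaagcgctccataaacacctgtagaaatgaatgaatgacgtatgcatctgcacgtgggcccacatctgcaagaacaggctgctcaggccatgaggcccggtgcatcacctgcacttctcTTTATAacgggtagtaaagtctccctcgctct
The ITGA2 window held 4 GC box matches, the ITGA5 window 1, and the ITGAV and ITGA6 windows 0. Among all 35116 RefSeq windows of this length, 42.6% held at least 1. The ITGA6 window held 1 TATA match, as did 10.7% of all windows, and its GC content was 50.8% against 76.4%, 70.0% and 70.8% for ITGA2, ITGA5 and ITGAV. Neither these windows nor those of ITGA1, ITGB1 and ITGB5 held the AP-1 motif TGANTCA, which 6.57% of all windows held. These matches describe letters in a window and say nothing of factor binding.

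Levels of different genes were compared per length, as CPM per kb of merged exons. In sh-IGFBP6 control cells ITGB1 was highest at 74.2 ± 2.51 CPM per kb (SD, n = 3), then ITGA6 at 51.3 ± 3.65 and ITGA3 at 51.0 ± 0.708, whose libraries overlapped. ITGA2 (39.3 ± 3.45), ITGA5 (20.8 ± 0.719), ITGAV (11.3 ± 0.162), ITGB5 (8.75 ± 0.831), ITGB4 (2.73 ± 0.476), ITGA1 (1.72 ± 0.168) and ITGB3 (0.252 ± 0.131) followed in that order, each apart from its neighbour in all 3 libraries. In sh-LUC control cells ITGA3, a laminin receptor subunit, was highest at 233 ± 3.39 CPM per kb, followed by ITGB1 at 159 ± 10.1. ITGA6 (50.2 ± 2.56) and ITGB4 (48.3 ± 3.12) came next with overlapping libraries, then ITGB5 (37.6 ± 0.199). ITGA2 (30.2 ± 2.79), ITGB3 (28.3 ± 2.50) and ITGAV (26.5 ± 1.14) could not be ordered beyond their spread, and ITGA5 (19.1 ± 0.547) and ITGA1 (4.78 ± 0.242) were lowest. With treatment the order at the top changed in the sh-IGFBP6 line. After DHA, ITGA2 (76.3 ± 5.02), ITGB1 (72.0 ± 0.735) and ITGA3 (71.3 ± 3.92) overlapped at the top, and after erastin ITGB1 (89.9 ± 11.6) was followed by ITGA2 (66.9 ± 0.590), ahead of ITGA3 (48.2 ± 3.12). ITGA3 and then ITGB1 stayed at the top in sh-LUC cells with DHA, at 313 ± 8.71 and 148 ± 4.28 CPM per kb, and with erastin, at 233 ± 14.2 and 140.3 ± 5.53. The level per length of ITGB3 may be understated, since 51.57% of its exon bases are shared with another annotated gene on the same strand, AC068234.1, which held 0 counts in these libraries.

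**Figure D1:**
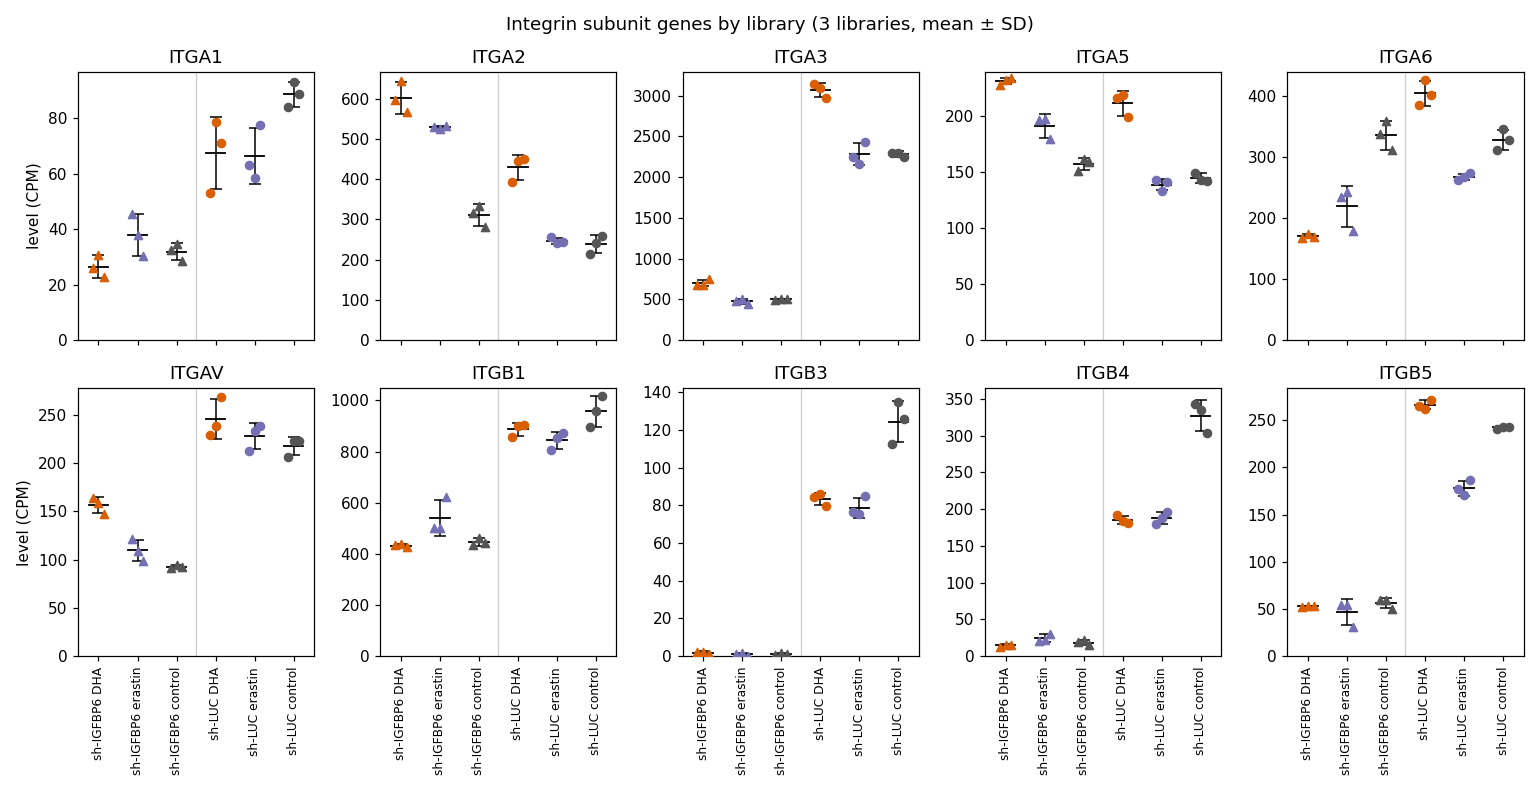
Level of each integrin subunit gene in CPM (vertical axis, linear from 0, one panel per gene) in each of the 18 libraries, with triangles for sh-IGFBP6 and circles for sh-LUC cells, bars for the mean and whiskers for the SD of 3 libraries. ITGB3 stood at 0 to 2.40 CPM in all sh-IGFBP6 libraries and at 75.3 to 134.7 CPM in all sh-LUC libraries, and ITGA6 with DHA was below its control in sh-IGFBP6 cells and above it in sh-LUC cells.

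Without treatment, most of the integrin genes were lower in sh-IGFBP6 than in sh-LUC cells, and the beta subunits ITGB3 and ITGB4 differed most. Of the 10 genes, 7 were lower, 1 was higher (ITGA2) and 2 did not pass the test (ITGA5 and ITGA6), where passing means a quasi-likelihood p from edgeR of less than 0.05 after Benjamini-Hochberg adjustment. Across all 15189 genes tested, 64.6% were called, 32.1% lower and 32.5% higher. The median log2 fold change of the 10 genes was -1.35, against 0.0062 over all genes. By size, 26.4% of all genes were called and differed at least 2-fold, as all 7 lower integrin genes did. The libraries of the lines did not overlap for 9 of the 10 genes, against 67.3% of all genes tested.

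Among the vitronectin and fibronectin receptor subunits, ITGB3, which pairs with ITGAV, was close to 0 in the sh-IGFBP6 line. It stood at 0.602, 1.73 and 0.985 CPM (2, 9 and 4 counts) in sh-IGFBP6 control cells, against 113, 135 and 126 CPM in sh-LUC control cells. The lines did not overlap, and the log2 fold change was -6.68 (SE 0.17, adjusted p = 6.89e-67), 103-fold lower. ITGB5, the other vitronectin receptor beta subunit, stood at 59.6, 59.4 and 50.2 CPM in sh-IGFBP6 control cells and at 241, 243 and 243 CPM in sh-LUC control cells, a log2 fold change of -2.10 (SE 0.073, adjusted p = 8.80e-54). Their alpha partner ITGAV was less reduced. Its levels were 91.8, 94.3 and 92.1 CPM in sh-IGFBP6 control cells and 207, 223 and 223 CPM in sh-LUC control cells, with a log2 fold change of -1.23 (SE 0.069, adjusted p = 5.75e-34). ITGA5, the fibronectin receptor alpha subunit, stood at 151, 162 and 159 CPM in sh-IGFBP6 control cells and at 149, 142 and 142 CPM in sh-LUC control cells. The libraries of the lines did not overlap, but its log2 fold change of 0.13 (95% interval -0.015 to 0.27) did not pass the test (adjusted p = 0.0797).

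The laminin receptor subunits split. ITGB4, the hemidesmosomal beta subunit, stood at 19.0, 21.4 and 15.0 CPM in sh-IGFBP6 control cells, against 343, 334 and 303 CPM in sh-LUC control cells, and was 17.5-fold lower (log2 fold change -4.13, SE 0.088, adjusted p = 2.34e-76). Its partner ITGA6 stood at 337, 358 and 310.4 CPM in sh-IGFBP6 control cells and at 311, 344 and 328 CPM in sh-LUC control cells, so that the libraries of the lines overlapped (log2 fold change 0.033, 95% interval -0.092 to 0.16, adjusted p = 0.634). ITGA3, which pairs with ITGB1, stood at 493, 507 and 500.4 CPM in sh-IGFBP6 control cells, against 2301, 2301 and 2243 CPM in sh-LUC control cells, and was 4.56-fold lower (log2 fold change -2.19, SE 0.065, adjusted p = 2.03e-60). The spread within each group was far smaller than this gap.

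The 2 collagen receptor subunits went in opposite directions. ITGA1 stood at 32.5, 34.7 and 28.6 CPM in sh-IGFBP6 control cells and at 84.2, 93.2 and 88.9 CPM in sh-LUC control cells, a log2 fold change of -1.47 (SE 0.16, adjusted p = 1.97e-07). ITGA2, which lies beside it in the genome, stood at 316, 335 and 281 CPM in sh-IGFBP6 control cells and at 215, 243 and 259 CPM in sh-LUC control cells. It was the 1 integrin gene of the 10 that was higher in the sh-IGFBP6 line (log2 fold change 0.37, SE 0.061, adjusted p = 5.22e-08). With library sizes alone in place of TMM scaling its log2 fold change was 0.48 and did not pass the test (adjusted p = 0.0764). ITGB1, the common partner of the alpha subunits, stood at 433, 463 and 443 CPM in sh-IGFBP6 control cells and at 896, 959.8 and 1018 CPM in sh-LUC control cells, a log2 fold change of -1.10 (SE 0.056, adjusted p = 1.50e-37). Its processed pseudogene ITGB1P1 held 0.517% to 0.705% as many counts in the 6 groups, so reads that match both genes may be split between them.

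**Figure D2:**
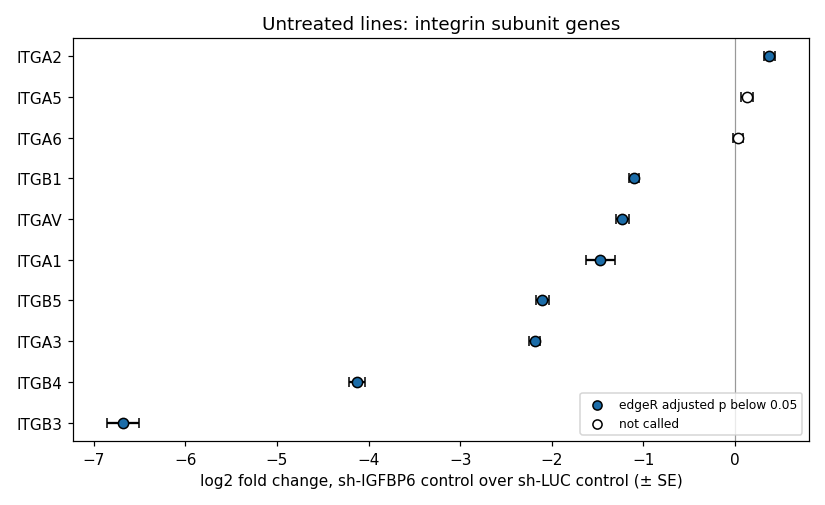
Log2 fold change of sh-IGFBP6 control over sh-LUC control cells (horizontal axis, with SE) for the 10 genes in order, filled where edgeR's adjusted p was below 0.05. ITGB3 at -6.68 and ITGB4 at -4.13 lie farthest from 0, ITGA5 and ITGA6 are open, and ITGA2 is the 1 filled point above 0 (not called with library sizes alone).

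The mix of subunit RNAs differed between the lines. Summed per length, the 6 alpha genes reached 175 ± 7.85 CPM per kb in sh-IGFBP6 control cells and 364 ± 5.19 in sh-LUC control cells (SD, n = 3 each), and the 4 beta genes 85.9 ± 3.27 in sh-IGFBP6 control cells and 274 ± 9.40 in sh-LUC control cells. Of the alpha sum, ITGA3 took 29.1% ± 1.15 in sh-IGFBP6 control cells, against 64.0% ± 1.18 in sh-LUC control cells. ITGA6 took 29.2% ± 0.814 in sh-IGFBP6 and 13.8% ± 0.512 in sh-LUC control cells, and ITGA2 22.4% ± 1.05 in sh-IGFBP6 and 8.30% ± 0.725 in sh-LUC control cells. No single alpha gene made up most of the sum in the sh-IGFBP6 line, as ITGA3 did in the sh-LUC line. Of the beta sum, ITGB1 took 86.4% ± 1.25 in sh-IGFBP6 control cells and 58.2% ± 1.91 in sh-LUC control cells. ITGB4, ITGB5 and ITGB3 took 3.17% ± 0.462, 10.2% ± 0.852 and 0.290% ± 0.140 in sh-IGFBP6 control cells, against 17.7% ± 1.67, 13.8% ± 0.408 and 10.3% ± 0.646 in sh-LUC control cells. After treatment ITGA2 took 34.0% ± 1.78 of the alpha sum with DHA and 35.5% ± 2.31 with erastin in sh-IGFBP6 cells, while ITGA6 took 11.6% ± 0.0101 and 17.6% ± 1.85. In treated sh-LUC cells ITGA3 stayed at 63.8% ± 1.56 with DHA and 65.6% ± 0.986 with erastin. These shares are RNA shares of the 10 listed genes and were not tested.

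**Figure D3:**
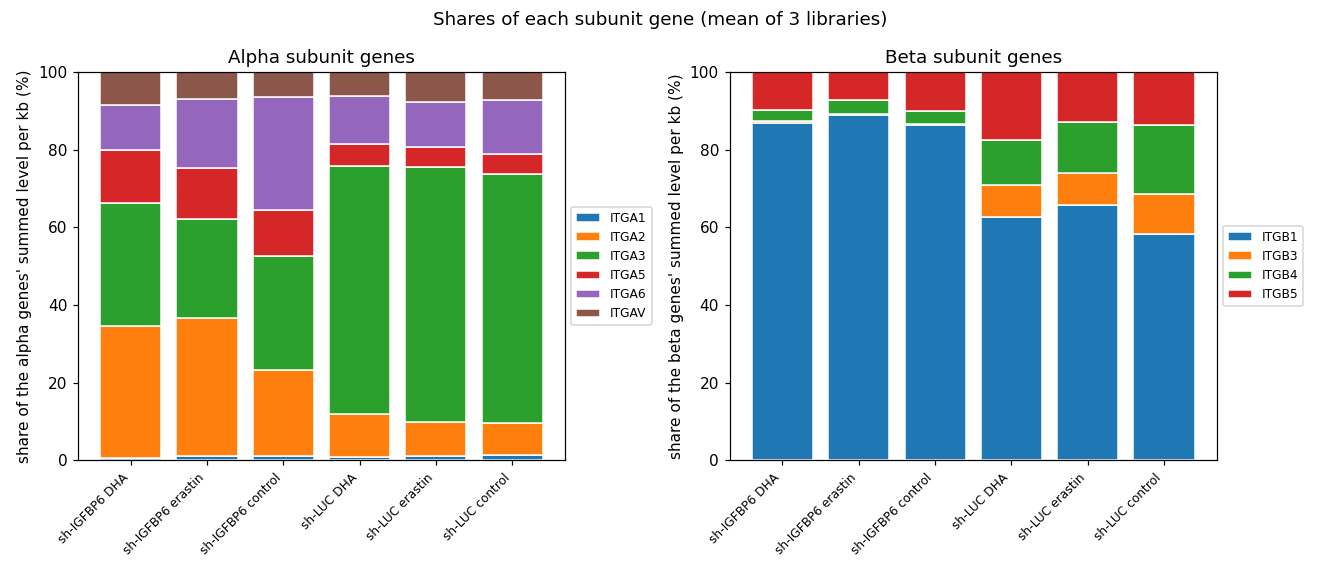
Share of each gene (vertical axis, percent, mean of 3 libraries) in the summed level per kb of the 6 alpha genes (left) and the 4 beta genes (right) in the 6 groups. ITGA3 takes 29.1% of the alpha bar in sh-IGFBP6 control cells and 64.0% in sh-LUC control cells, and ITGB1 takes 86.4% or more of the beta bar in all 3 sh-IGFBP6 groups.

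With DHA several alpha subunits rose in both lines, and the beta subunits either fell or did not pass the test, though fewer genes passed with library sizes alone. In sh-IGFBP6 cells 4 of the 10 genes were higher with DHA and 1 was lower, where 34.2% of all genes were called (17.4% higher, 16.8% lower). In sh-LUC cells 5 were higher and 2 lower, where 16.8% of all genes were called (7.14% higher, 9.63% lower). The median log2 change of the 10 genes was 0.22 in sh-IGFBP6 cells and 0.15 in sh-LUC cells, against 0.0022 and 0.0055 over all genes. With library sizes alone in place of TMM, the members called were 2 higher and 1 lower in sh-IGFBP6 cells and 1 higher and 2 lower in sh-LUC cells. The number called over all genes fell as well, from 5202 to 2579 in sh-IGFBP6 cells and from 2546 to 756 in sh-LUC cells. The calls then lost in sh-IGFBP6 cells were ITGA3 at 0.40 (adjusted p = 0.281) and ITGA5 at 0.47 (adjusted p = 0.129). Those lost in sh-LUC cells were ITGA3 at 0.48 (adjusted p = 0.324), ITGA5 at 0.60 (adjusted p = 0.101), ITGA6 at 0.35 (adjusted p = 0.515) and ITGAV at 0.22 (adjusted p = 0.731). In the same order the sh-LUC values with TMM were 0.43, 0.55, 0.30 and 0.17, so none was smaller with library sizes alone. The fit shares its dispersion over all 18 libraries, and why these calls were lost was not tested. The DHA and control libraries did not overlap for 5 of the 10 genes, against 44.0% of all genes tested, in sh-IGFBP6 cells, and for 9 of the 10 genes, against 30.0% of all genes tested, in sh-LUC cells. The comparisons within a line share their control libraries.

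The collagen receptor subunit ITGA2 rose most with DHA. It stood at 597, 646 and 568 CPM with DHA and 316, 335 and 281 CPM in control sh-IGFBP6 cells (log2 fold change 0.96, SE 0.057, adjusted p = 1.47e-28). The sh-LUC libraries held 393, 446 and 450.3 CPM with DHA and 215, 243 and 259 CPM in control (log2 fold change 0.84, SE 0.059, adjusted p = 1.71e-23). Neither line's groups overlapped, and the responses differed between lines by 0.12 (95% interval -0.063 to 0.29), which did not pass the test. ITGA1 stood at 26.1, 30.7 and 22.6 CPM with DHA in sh-IGFBP6 cells and at 53.1, 78.5 and 71.1 CPM with DHA in sh-LUC cells, with log2 fold changes of -0.24 (adjusted p = 0.369) and -0.38 (adjusted p = 0.0601). The sh-LUC value passed without sh-LUC DHA replicate 2, at -0.50 (adjusted p = 0.00126). It also passed at -0.38 without sh-IGFBP6 DHA replicate 2 or sh-LUC erastin replicate 2 or 3 (adjusted p = 0.0388, 0.0150 and 0.00189). These libraries are not in the comparison and enter through the shared dispersion, filter, scaling and adjustment. The sh-LUC value passed as well in DESeq2 (adjusted p = 0.0294), with no filter on low counts (-0.32, adjusted p = 0.00429) and with only the compared libraries in the fit (adjusted p = 0.00391).

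ITGA6, the laminin receptor subunit, moved in opposite directions. It fell to 168, 173 and 169 CPM with DHA in sh-IGFBP6 cells, against 337, 358 and 310.4 CPM in their control (log2 fold change -0.98, SE 0.059, adjusted p = 3.43e-30). It rose to 385, 426 and 401 CPM with DHA in sh-LUC cells, against 311, 344 and 328 CPM in their control (log2 fold change 0.30, SE 0.056, adjusted p = 7.33e-06). The sh-LUC value with library sizes alone was 0.35 and did not pass (adjusted p = 0.515). The groups overlapped in neither line. The difference between the responses was -1.28 (SE 0.081, adjusted p = 9.62e-28). ITGA3, the other laminin receptor alpha subunit, rose in both lines. It stood at 675, 678 and 743 CPM with DHA in sh-IGFBP6 cells and at 3139.5, 3099.7 and 2976 CPM with DHA in sh-LUC cells, log2 fold changes of 0.48 (SE 0.064, adjusted p = 1.88e-10) and 0.43 (SE 0.062, adjusted p = 9.92e-09) over control, with a difference of 0.053 (95% interval -0.14 to 0.25). ITGB4 stood at 12.9, 15.9 and 15.3 CPM with DHA in sh-IGFBP6 cells, a log2 fold change of -0.32 (SE 0.14) that did not pass the test (adjusted p = 0.0646). Without sh-IGFBP6 control replicate 3 it was -0.46 and passed (adjusted p = 0.0121), as it did with DESeq2's size factors (-0.34, adjusted p = 0.0450). In sh-LUC cells ITGB4 fell to 192, 183 and 182 CPM with DHA, against 343, 334 and 303 CPM in control (log2 fold change -0.81, SE 0.060, adjusted p = 1.50e-23).

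The fibronectin receptor subunit ITGA5 rose in both lines. It stood at 228, 232 and 234 CPM with DHA in sh-IGFBP6 cells and at 216, 219 and 199 CPM with DHA in sh-LUC cells, log2 fold changes of 0.55 (SE 0.061, adjusted p = 8.14e-14) and 0.55 (SE 0.061, adjusted p = 5.39e-13) over control. The difference between the responses was 0.0044 (95% interval -0.18 to 0.19). ITGAV rose to 164, 159 and 148 CPM with DHA in sh-IGFBP6 cells, against 91.8, 94.3 and 92.1 CPM in control (log2 fold change 0.76, SE 0.070, adjusted p = 9.85e-18). In sh-LUC cells it stood at 229.6, 238 and 269 CPM with DHA, against 207, 223 and 223 CPM in control (log2 fold change 0.17, SE 0.061, adjusted p = 0.0355). That sh-LUC call was lost without any of the 3 sh-LUC control libraries (log2 fold change 0.14, 0.19 and 0.19, adjusted p = 0.171, 0.0612 and 0.0560), without sh-LUC DHA replicate 3 (0.10, adjusted p = 0.329) and in DESeq2 (adjusted p = 0.158). ITGB3 fell to 84.5, 86.0 and 79.8 CPM with DHA in sh-LUC cells, against 113, 135 and 126 CPM in control (log2 fold change -0.58, SE 0.073, adjusted p = 7.15e-11). In sh-IGFBP6 cells it had 8, 14 and 4 counts with DHA and 2, 9 and 4 in control, and a difference was not detectable at this depth (log2 fold change 0.61, 95% interval -0.39 to 1.61). ITGB5 and ITGB1 passed the test in neither line, although ITGB5 in sh-LUC cells passed with no filter on low counts (0.20, adjusted p = 0.0453). Their log2 fold changes were -0.089 and -0.045 in sh-IGFBP6 cells and 0.14 and -0.11 in sh-LUC cells.

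With erastin every integrin gene that changed in sh-LUC cells fell. In sh-IGFBP6 cells more rose than fell with TMM scaling, but with library sizes alone the members called were 0 higher and 1 lower. The calls over all genes shifted as well. With library sizes alone 23.1% of them were higher in sh-IGFBP6 cells, against 50.5% with TMM, and 31.9% in sh-LUC cells, against 46.7%. In sh-IGFBP6 cells 4 genes were higher and 1 was lower, where 29.0% of all genes were called (14.7% higher, 14.3% lower). In sh-LUC cells 6 genes were lower and 0 were higher, at an unadjusted p under 0.05 also 0 and in DESeq2 also 0, where 45.9% of all genes were called (21.4% higher, 24.4% lower). The median log2 change of the 10 genes was 0.24 in sh-IGFBP6 cells and -0.24 in sh-LUC cells, against 0.0036 and -0.015 over all genes. With library sizes alone the median over all genes was -0.19 in sh-IGFBP6 cells and -0.12 in sh-LUC cells, so the values given are relative to the bulk of genes. With the 2 mitochondrial ribosomal RNA genes left out before library sizes were taken, and TMM kept, the members called were 4 higher and 1 lower in sh-IGFBP6 cells. Library sizes alone gave 0 higher and 4 lower in sh-LUC cells, where the calls lost were ITGA6 at -0.40 (adjusted p = 0.187) and ITGB1 at -0.29 (adjusted p = 0.382). The erastin and control libraries did not overlap for 5 of the 10 genes, against 36.5% of all genes tested, in sh-IGFBP6 cells, and for 6 of the 10 genes, against 53.9% of all genes tested, in sh-LUC cells.

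In sh-IGFBP6 cells ITGA2 rose to 530.4, 524 and 533 CPM with erastin, against 316, 335 and 281 CPM in control (log2 fold change 0.76, SE 0.061, adjusted p = 2.24e-20). The third erastin library gave its value from 140 counts. The log2 fold change of ITGA2 with library sizes alone was 0.39 and did not pass (adjusted p = 0.248). In sh-LUC cells ITGA2 stood at 256, 241 and 243 CPM with erastin, overlapping its control, a log2 fold change of 0.040 (95% interval -0.091 to 0.17). The log2 fold changes of ITGA5 (0.31, SE 0.065, adjusted p = 5.31e-05), ITGAV (0.31, SE 0.076, adjusted p = 0.000822) and ITGB1 (0.21, SE 0.060, adjusted p = 0.00308) were above 0 with erastin in sh-IGFBP6 cells, but with library sizes alone they were -0.021, -0.0094 and -0.16. ITGA5 stood at 197, 197 and 179 CPM with erastin, ITGAV at 121, 109 and 99.0 CPM and ITGB1 at 501, 500.0 and 621 CPM. Without the library rich in mitochondrial RNA, ITGA5, ITGAV and ITGB1 kept their calls at 0.32, 0.32 and 0.17. With no filter on low counts ITGB1 lost its call, at 0.20 (adjusted p = 0.0677). Without sh-IGFBP6 erastin replicate 1 ITGAV lost its call, at 0.20 (adjusted p = 0.146). ITGA6 fell to 235, 242 and 179 CPM with erastin in sh-IGFBP6 cells, against 337, 358 and 310.4 CPM in control (log2 fold change -0.52, SE 0.062, adjusted p = 3.63e-12), and to 262, 266 and 272 CPM with erastin in sh-LUC cells, against 311, 344 and 328 CPM in control (log2 fold change -0.30, SE 0.056, adjusted p = 4.04e-06).

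In sh-LUC cells the beta subunits fell with erastin. ITGB4 stood at 180.3, 188 and 197 CPM with erastin, against 343, 334 and 303 CPM in control (log2 fold change -0.79, SE 0.059, adjusted p = 9.05e-24). ITGB3 stood at 76.3, 75.3 and 85.0 CPM with erastin, against 113, 135 and 126 CPM in control (log2 fold change -0.66, SE 0.073, adjusted p = 5.27e-14). ITGB5 stood at 177, 170.4 and 186 CPM with erastin, against 241, 243 and 243 CPM in control (log2 fold change -0.45, SE 0.060, adjusted p = 1.73e-10). None of these 3 genes had overlapping groups. ITGB1 changed less, at 807, 852 and 872 CPM with erastin and 896, 959.8 and 1018 CPM in control (log2 fold change -0.18, SE 0.054, adjusted p = 0.00312), and lost its call without sh-LUC control replicate 3 (-0.14, adjusted p = 0.0643) and with no filter on low counts (-0.14, adjusted p = 0.180). ITGA1 stood at 63.1, 58.5 and 77.7 CPM with erastin and 84.2, 93.2 and 88.9 CPM in control (log2 fold change -0.42, SE 0.13, adjusted p = 0.0151), and lost its call without sh-LUC control replicate 2 or 3 or sh-LUC erastin replicate 1 (log2 fold change -0.38, -0.42 and -0.38, adjusted p = 0.0601, 0.0621 and 0.0548). ITGA3, ITGA5 and ITGAV did not pass the test in sh-LUC cells, with log2 fold changes of 0.00063, -0.057 and 0.065. In sh-IGFBP6 cells ITGB4 at 21.1, 21.8 and 30.5 CPM, ITGB5 at 54.0, 54.6 and 30.5 CPM and ITGA3 at 482, 497 and 438 CPM did not pass the test, with log2 fold changes of 0.21, -0.078 and -0.060. ITGB3 had 10, 8 and 0 counts with erastin in sh-IGFBP6 cells, too few to show a difference (95% interval of the log2 fold change -0.82 to 1.37). ITGA1 at 45.4, 37.8 and 30.5 CPM did not pass either, with a log2 fold change of 0.38 (adjusted p = 0.138). That value passed without sh-LUC DHA replicate 1 or 2 or sh-LUC erastin replicate 3, which enter through the shared dispersion, filter, scaling and adjustment (log2 fold change 0.38, 0.38 and 0.38, adjusted p = 0.00811, 0.0371 and 0.0200). It also passed with no filter on low counts and with only the compared libraries in the fit (0.37 and 0.39, adjusted p = 0.0134 and 0.00449).

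**Figure D4:**
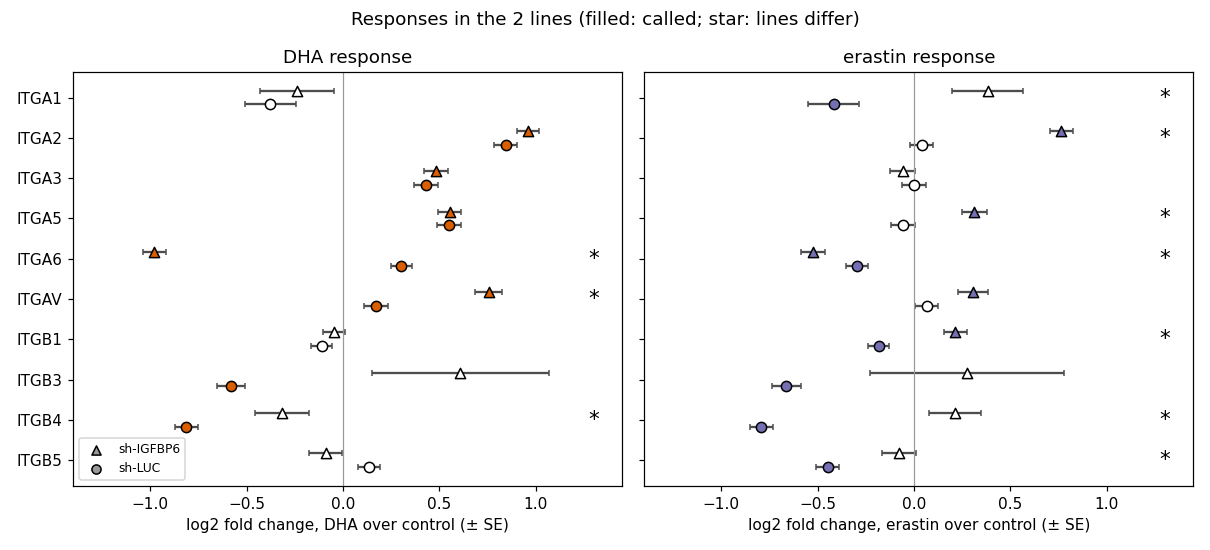
Log2 fold change over control (horizontal axis, with SE) of the 10 genes with DHA (left) and erastin (right), triangles for sh-IGFBP6 and circles for sh-LUC cells, filled where edgeR's adjusted p was below 0.05, with a star where the responses of the lines differed at that threshold. ITGA6 with DHA lies at -0.98 in sh-IGFBP6 cells and 0.30 in sh-LUC cells. The erastin panel holds filled triangles above 0 only for ITGA2, ITGA5, ITGAV and ITGB1. With library sizes alone the last 3 lie below 0, ITGA2 is not called, and 0 of the 10 genes are called higher. Over all genes 23.1% of the erastin calls in sh-IGFBP6 cells are then higher, against 50.5% with TMM.

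The difference between the lines in their responses was tested as an interaction, sh-IGFBP6 minus sh-LUC on the log2 scale. For DHA it passed for 3 of the 10 genes, where 20.6% of all genes were called (10.4% with a higher and 10.2% with a lower value in sh-IGFBP6 cells). ITGAV had the higher value in sh-IGFBP6 cells (0.59, SE 0.093, adjusted p = 1.70e-07). ITGB4 had the less negative value in sh-IGFBP6 cells (0.50, SE 0.15, adjusted p = 0.0101), a call lost without sh-IGFBP6 control replicate 3 (0.34, adjusted p = 0.134) or sh-IGFBP6 DHA replicate 2 (0.42, adjusted p = 0.101). With no filter on low counts ITGB4 was also not called (0.40, adjusted p = 0.128). ITGA6, given above, was the third and the 1 call kept with library sizes alone, which gave ITGAV at 0.45 (adjusted p = 0.471) and ITGB4 at 0.36 (adjusted p = 0.629). That scaling called 1041 genes in all for this difference, against 3124 with TMM. ITGB3 did not pass (1.19, adjusted p = 0.0508), on few counts in sh-IGFBP6 cells, and passed without sh-LUC control replicate 1, sh-IGFBP6 control replicate 2 or sh-IGFBP6 DHA replicate 3 (1.25, 1.73 and 1.42, adjusted p = 0.0417, 0.0242 and 0.0233) or with the mitochondrial ribosomal RNA genes left out (adjusted p = 0.0496). ITGB5 was not called (-0.22, adjusted p = 0.116) but passed without sh-IGFBP6 control replicate 3 (-0.33, adjusted p = 0.0286).

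For erastin the interaction passed for 7 of the 10 genes, where 26.2% of all genes were called and 14.1% had a higher value in sh-IGFBP6 cells. Of the 7, 6 had the higher value in sh-IGFBP6 cells. Of the 7, 2 also passed with library sizes alone, ITGB4 and ITGA1. Over all genes that scaling called 1327, against 3973 with TMM. The largest of the 7 with TMM was ITGB4 (1.01, SE 0.15, adjusted p = 1.22e-08), followed by ITGA1 (0.80, SE 0.23, adjusted p = 0.0138) and ITGA2 (0.72, SE 0.085, adjusted p = 1.41e-11). ITGB1, ITGA5 and ITGB5 differed by 0.40, 0.37 and 0.37 (adjusted p = 4.18e-05, 0.000791 and 0.00561). Library sizes alone gave ITGA2 at 0.46 (adjusted p = 0.469), ITGB1 at 0.13 (adjusted p = 0.880), ITGA5 at 0.15 (adjusted p = 0.857) and ITGB5 at 0.21 (adjusted p = 0.774), and ITGB5 was also not called with no filter on low counts (adjusted p = 0.0887 at 0.31). ITGA6 had the lower value in sh-IGFBP6 cells (-0.23, SE 0.084, adjusted p = 0.0329), and that call was lost without any 1 of 6 libraries, namely sh-LUC control replicates 1 and 3, sh-IGFBP6 control replicates 1 and 2 and sh-LUC erastin replicates 2 and 3. The log2 values without them were -0.19, -0.23, -0.23, -0.17, -0.23 and -0.21, with adjusted p of 0.0527 to 0.164. The ITGA6 call was also lost in DESeq2 (adjusted p = 0.0696), with a filter of at least 1 CPM in 3 libraries (adjusted p = 0.0583) and with library sizes alone (-0.48, adjusted p = 0.423). ITGA1 and ITGB5 lost their calls without sh-IGFBP6 control replicate 3 (0.69 and 0.26, adjusted p = 0.0610 and 0.0932) or sh-IGFBP6 erastin replicate 1 (0.59 and 0.31, adjusted p = 0.131 and 0.0902). ITGAV was not called (0.24, adjusted p = 0.0555) and passed without sh-LUC control replicate 1, sh-LUC DHA replicate 2 or 3, sh-LUC erastin replicate 3 or sh-IGFBP6 erastin replicate 2 (log2 values 0.28, 0.24, 0.24, 0.27 and 0.29, adjusted p of 0.0366 to 0.0497). ITGA3 and ITGB3 did not pass.

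Set directly against erastin, ITGA2, ITGA3 and ITGA5 were higher with DHA in both lines. In sh-IGFBP6 cells 4 genes were higher with DHA than with erastin and 4 were lower, where 25.9% of all genes were called (13.1% higher, 12.8% lower). The libraries did not overlap for 7 of the 10 genes, against 31.6% of all genes tested. ITGA3 (0.54, SE 0.067, adjusted p = 3.43e-11), ITGAV (0.45, SE 0.072, adjusted p = 1.76e-07), ITGA5 (0.24) and ITGA2 (0.20) were higher, and ITGA1 (-0.62), ITGB4 (-0.53), ITGA6 (-0.46) and ITGB1 (-0.26, but 0.030 with library sizes alone) were lower. The ITGA2 call was lost without sh-IGFBP6 DHA replicate 2 or sh-IGFBP6 erastin replicate 2 (0.14 and 0.19, adjusted p = 0.112 and 0.0536), in DESeq2 (adjusted p = 0.0503) and with no filter on low counts (adjusted p = 0.0903). With library sizes alone the members called were 2 higher and 1 lower, and besides ITGB1 the calls lost were ITGA2 at 0.48 (adjusted p = 0.180), ITGA5 at 0.49 (adjusted p = 0.142), ITGA6 at -0.17 (adjusted p = 0.699) and ITGB4 at -0.45 (adjusted p = 0.283). Over all genes that scaling called 1541, of which 63.1% were higher, against 3928 and 50.6% with TMM. The ITGA1 call was lost without sh-IGFBP6 DHA replicate 1 or 3 or sh-IGFBP6 erastin replicate 1 (-0.60, -0.52 and -0.45, adjusted p = 0.0559, 0.0666 and 0.220). In sh-LUC cells ITGA2 (0.80), ITGA5 (0.61), ITGA6 (0.60), ITGB5 (0.58) and ITGA3 (0.43) were higher with DHA than with erastin and 0 were lower, also 0 at an unadjusted p under 0.05 and in DESeq2, where 50.2% of all genes were called (26.0% higher, 24.2% lower). The libraries did not overlap for 5 of the 10 genes, against 55.9% of all genes tested. ITGAV was not called (0.11, adjusted p = 0.110) but passed without sh-LUC DHA replicate 1 (0.15, adjusted p = 0.0366). DHA and erastin were given at 1 dose each, and the doses differ.

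Of 16 other integrin genes listed, 6 were expressed enough to test. Without treatment, 1 was higher and 3 were lower in sh-IGFBP6 cells, where 64.6% of all genes were called. ITGA7, a laminin receptor subunit known from muscle, stood at 12.3 ± 2.59 CPM in sh-IGFBP6 control cells and 0.932 ± 0.469 in sh-LUC control cells (log2 fold change 3.79, SE 0.37, adjusted p = 1.76e-17). ITGA10, a collagen receptor subunit, stood at 6.19 ± 1.03 CPM in sh-IGFBP6 and 39.6 ± 2.23 in sh-LUC control cells (-2.71, SE 0.17, adjusted p = 4.74e-31). ITGB2, the leukocyte integrin beta subunit, stood at 16.1 ± 1.40 in sh-IGFBP6 and 71.9 ± 2.51 CPM in sh-LUC control cells (-2.14, SE 0.11, adjusted p = 2.39e-36), and ITGA11, a collagen receptor subunit, at 1.52 ± 0.573 in sh-IGFBP6 and 3.97 ± 2.23 CPM in sh-LUC control cells (-1.54). ITGAE and ITGB8 did not pass (-0.25 and 0.43). With DHA, log2 values below 0 were called for 4 of the 6 in sh-IGFBP6 cells (ITGB2 -1.29, ITGA7 -0.95, ITGA10 -0.86 and ITGAE -0.40), where 34.2% of all genes were called. In sh-LUC cells they were called for 2 of the 6 (ITGB2 -0.37 and ITGA10 -0.29), where 16.8% of all genes were called. With erastin ITGAE (-0.79) and ITGA7 (-0.67) were lower in sh-IGFBP6 cells, where 29.0% of all genes were called. ITGAE (-0.67) and ITGB2 (-0.42) were lower with erastin in sh-LUC cells, where 45.9% of all genes were called. The leukocyte markers summed to 0.771 to 2.11 CPM in sh-IGFBP6 control libraries and 4.21 to 4.95 CPM in sh-LUC control libraries, and their part in the ITGB2 result was not tested.

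The genes for matrix ligands were also mostly lower in untreated sh-IGFBP6 cells, with 7 higher and 21 lower of 32 tested and a median log2 fold change of -1.26, against 0.0062 over all genes, of which 64.6% were called. For the treatment counts below, 34.2% of all genes were called with DHA and 29.0% with erastin in sh-IGFBP6 cells, and 16.8% with DHA and 45.9% with erastin in sh-LUC cells. COL5A1, a fibrillar collagen chain, stood at 1.68 ± 0.909 CPM in sh-IGFBP6 control cells and 664 ± 38.1 in sh-LUC control cells (-8.68, SE 0.12, adjusted p = 3.79e-97), and COL6A1, a collagen VI chain, had a log2 fold change of -5.98. COL6A2, another collagen VI chain, had 0 counts in the 3 sh-IGFBP6 control libraries and 50.2 ± 3.71 CPM in sh-LUC control cells, at least 210.4-fold lower against a floor of 3 counts over the group. LAMA4, a laminin alpha chain, went the other way, at 156 ± 8.78 CPM in sh-IGFBP6 control cells and 0.718 ± 0.434 in sh-LUC control cells (7.62, SE 0.19, adjusted p = 3.71e-70). Of the hemidesmosome list, 3 higher and 4 lower of 7 genes tested, LAMA3 (-2.65) and the plakin PLEC (-1.41) were lower beside ITGB4, while COL17A1 (2.19) was higher. With DHA the ligand genes gave 6 higher and 9 lower of 32 in sh-IGFBP6 cells, among them CCN2 (-0.85), LAMA1 (0.75) and COL1A1 (0.66). In sh-LUC cells they gave 3 higher and 11 lower of 32, among them LAMB3 (0.77), COL1A1 (-0.46) and FBN1 (-0.45). With erastin they gave 9 higher and 7 lower of 32 in sh-IGFBP6 cells, where COL6A1 (0.96), the adhesive glycoprotein gene THBS1 (0.68) and LAMA1 (0.64) rose. In sh-LUC cells they gave 6 higher and 14 lower of 32, with LAMA1 at 2.32, COL1A1 at -1.12, LAMB1 at -1.05 and LAMA5 at -0.87. The hemidesmosome list with DHA had 3 higher and 1 lower of 7 in sh-IGFBP6 and 2 higher and 0 lower of 7 in sh-LUC cells, and with erastin 2 higher and 2 lower of 7 in sh-IGFBP6 and 2 higher and 1 lower of 7 in sh-LUC cells, where the keratin-linking plakin DST rose by 0.20 in sh-IGFBP6 and 0.66 in sh-LUC cells.

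Inside the cell, the adaptors that couple integrins to actin counted 6 higher and 20 lower of 34 tested in untreated sh-IGFBP6 cells (median -0.53), where 64.6% of all genes were called. With treatment the share over all genes was 34.2% for DHA and 29.0% for erastin in sh-IGFBP6 cells, and 16.8% for DHA and 45.9% for erastin in sh-LUC cells. NEDD9, a scaffold of focal adhesion signalling, stood at 0.722 ± 0.228 CPM in sh-IGFBP6 control cells and 45.5 ± 5.04 in sh-LUC control cells (-5.95, SE 0.25, adjusted p = 1.23e-46). TNS3, a tensin that binds beta subunit tails, had a log2 fold change of -5.82, KANK1 of -2.14 and FERMT3, the blood cell kindlin, of 1.79. With DHA the adaptors counted 6 higher and 8 lower of 34 in sh-IGFBP6 cells, where the kinase SRC rose to 99.7 ± 4.20 CPM against 37.0 ± 5.60 in control (1.40, SE 0.090, adjusted p = 4.48e-28), FERMT3 rose (0.80) and LIMS2 (-1.02) and vinculin, VCL (-0.59), fell. In sh-LUC cells they were 4 higher and 9 lower of 34, with FERMT3 (0.93) and FERMT1 (0.64) higher and NEDD9 (-0.57) and PARVA (-0.49) lower. With erastin they were 4 higher and 7 lower of 34 in sh-IGFBP6 cells, with SRC (0.69), FERMT2 (0.52) and CRK (0.41) higher and TNS2 (-0.50) lower. In sh-LUC cells they were 6 higher and 14 lower of 34, with FERMT3 (2.78) higher and TNS2 (-1.62), KANK2 (-0.74) and LIMS2 (-0.73) lower.

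Membrane partners counted 1 higher and 10 lower of 14 tested in untreated sh-IGFBP6 cells, where 64.6% of all genes were called. The tetraspanin CD82 stood at 2.13 ± 0.173 CPM in sh-IGFBP6 control cells and 54.6 ± 3.45 in sh-LUC control cells (-4.66, SE 0.18, adjusted p = 2.99e-48), and the caveolins CAV2 (-1.84) and CAV1 (-1.18) and the hyaluronan receptor CD44 (-1.04) were lower. CAV1 fell with DHA, to 108 ± 9.22 CPM against 277 ± 9.38 in sh-IGFBP6 control cells (-1.36) and to 431 ± 15.4 against 629 ± 33.7 in sh-LUC control cells (-0.55). SLC3A2, which binds beta subunits and is also the heavy chain of the cystine importer that erastin inhibits, rose in all 4 treatment comparisons. Its log2 fold changes were 1.57 with DHA and 1.06 with erastin in sh-IGFBP6 cells, and 0.67 with DHA and 2.08 with erastin in sh-LUC cells. Against 34.2% and 29.0% of all genes called with DHA and erastin in sh-IGFBP6 cells, and 16.8% and 45.9% in sh-LUC cells, the partner list gave 6 higher and 6 lower of 14 with DHA and 2 higher and 3 lower of 14 with erastin in sh-IGFBP6 cells, and 3 higher and 5 lower of 14 with DHA and 2 higher and 6 lower of 14 with erastin in sh-LUC cells, where CD82 (-1.06), SDC1 (-0.78) and CD47 (-0.67) were lower with erastin. Of the inhibitors and trafficking genes, 2 higher and 2 lower of 11 were called in untreated sh-IGFBP6 cells, a smaller share than the 64.6% over all genes, with the endocytic adaptor DAB2 at -1.58 and the integrin tail binder DOK1 at 1.32. With DHA that list gave 2 higher and 2 lower of 11 in sh-IGFBP6 and 0 higher and 2 lower of 11 in sh-LUC cells, and with erastin 3 higher and 3 lower of 11 in sh-IGFBP6 and 2 higher and 2 lower of 11 in sh-LUC cells.

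The gene whose level followed each integrin gene most closely was found over the 6 group means of log2 CPM, each centred on its own mean, as the smallest root mean square difference among 11508 genes. These were TUBA1A for ITGA1 (0.0383), LRWD1 for ITGA5 (0.0614), ZNF532 for ITGB1 (0.0571), MCOLN3 for ITGAV (0.0704), NR2F6 for ITGB5 (0.0704), RASA1 for ITGA6 (0.115), SPINT1 for ITGB4 (0.125), LCP1 for ITGA3 (0.135), ST3GAL1 for ITGA2 (0.154) and MSLN for ITGB3 (0.245), with the difference in log2 units in brackets. Among the 10 genes themselves, ITGA1 and ITGB1 lay closest to each other (0.180), then ITGA3 and ITGB5 (0.212) and ITGA2 and ITGA5 (0.274). The closest to ITGB4 was ITGB5 at 0.820, and to ITGB3 it was ITGB4 at 1.29. The 6 points share the libraries and the scaling, and the distances are descriptions without a test.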

How the data were processed

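RNA of MDA-MB-231 cells was sequenced in 18 libraries after ribosomal RNA depletion, per the labels' protocols. Per the submitters' processing notes, the authors' tools were cutadapt 4.4, STAR 2.7.7a and featureCounts with build GRCh38. Nothing read here states the annotation release, featureCounts version or strand setting, so reads of genes overlapping on opposite strands may be mixed. The authors deposited raw counts per gene, as whole numbers. 1 gene with blank counts was left out, and 2 lines naming no gene, at most 0.01082% of a library, entered neither the totals nor the fits. Symbols were found for 60649 genes by Ensembl ID. Unmapped count columns numbered 0, and no replicate pair was identical.

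Levels are CPM, counts scaled to the TMM effective library size. edgeR 4.0.16 (R 4.3.3; quasi-likelihood, robust, filterByExpr with minimum count 10 and minimum total 15) was fitted to all 18 libraries with 1 coefficient per group (12 residual degrees of freedom). Genes tested numbered 15189, with Benjamini-Hochberg adjustment over all of them and a threshold of 0.05. A count of 1 was worth 0.116 to 0.354 CPM, and 3.81 CPM in sh-IGFBP6 erastin replicate 3. Levels between genes were divided by GENCODE release 29 merged exon length. The fit was tested on simulated data. Alternatives were other scalings, filters, DESeq2 1.42.0, a replicate block, only the libraries compared, and each library left out. The members and gene lists were chosen with earlier results of these data known. Named are all 10 members, the other integrin genes that passed the filter, and of each other list up to 4 called genes with the largest change and a mean of at least 5 CPM, of which 1 gene is not reported here. Coordinates are on GRCh38 and 1-based.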

Additional observations from a re-analysis of the deposited data

Results flagged for a closer look

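Of the 20 tests of a difference between the lines in their response to a treatment, 10 passed and are given as log2 differences, sh-IGFBP6 minus sh-LUC, by edgeR's quasi-likelihood test adjusted over all genes. For DHA 3 of the 10 genes passed, where 20.6% of all genes were called. For erastin 7 of the 10 passed, where 26.2% of all genes were called. The DHA differences were ITGA6 at -1.28 (95% interval -1.46 to -1.10), ITGAV at 0.59 (0.38 to 0.79) and ITGB4 at 0.50 (0.17 to 0.83). With DHA, ITGA6 was the 1 gene of the 10 with a called change in each line and opposite signs, lower in 3 of 3 sh-IGFBP6 libraries and higher in 3 of 3 sh-LUC libraries than every control library of the same line. For erastin the differences were ITGB4 at 1.01 (0.69 to 1.32), ITGA1 at 0.80 (0.30 to 1.29), ITGA2 at 0.72 (0.54 to 0.91), ITGB1 at 0.40 (0.22 to 0.58), ITGA5 at 0.37 (0.17 to 0.57), ITGB5 at 0.37 (0.13 to 0.60) and ITGA6 at -0.23 (-0.41 to -0.044). ITGB1 was called in each line with opposite signs for erastin, but its sh-IGFBP6 value lay below 0 with library sizes alone. Leaving out a single library lost the calls of ITGB4 for DHA and of ITGA1, ITGB5 and ITGA6 for erastin, as given above. ITGA1 was lost without sh-IGFBP6 control replicate 3 or sh-IGFBP6 erastin replicate 1 (adjusted p = 0.0610 and 0.131). Library sizes alone took the genes called from 3124 to 1041 for DHA and from 3973 to 1327 for erastin. With that scaling 3 of the 10 differences passed, ITGA6 for DHA and ITGB4 and ITGA1 for erastin. The others were then ITGAV at 0.45 (adjusted p = 0.471) and ITGB4 at 0.36 (adjusted p = 0.629) for DHA and ITGA2 at 0.46 (adjusted p = 0.469), ITGB1 at 0.13 (adjusted p = 0.880), ITGA5 at 0.15 (adjusted p = 0.857), ITGB5 at 0.21 (adjusted p = 0.774) and ITGA6 at -0.48 (adjusted p = 0.423) for erastin.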

How the results depend on the processing

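Of the values of the 10 genes under alternatives, 2250 kept their side of the threshold, 56 lost and 27 gained the call, and 4 called values reversed. Values near 0 that were not called could also change sign, and such changes are not among the 4. ITGA3 with erastin in sh-LUC cells, for example, ran from -0.050 to 0.037 with 1 library left out. The 4 reversals of called values came with library sizes alone. They were ITGA5 (-0.021), ITGAV (-0.0094) and ITGB1 (-0.16) with erastin over control and ITGB1 (0.030) with DHA over erastin, all in sh-IGFBP6 cells. That scaling divides the library rich in mitochondrial RNA by a total that includes this RNA, and the cause of the other shifts was not tested. That setting called 3 members and 2579 genes for DHA, 1 and 2728 for erastin and 3 and 1541 for DHA over erastin in sh-IGFBP6 cells, and 3 and 756 for DHA in sh-LUC cells. For the line difference in response it called 1 member and 1041 genes for DHA and 2 and 1327 for erastin, with 4571 genes for erastin in sh-LUC cells. The share of called genes that were higher was then 33.3% instead of 50.8% (DHA) and 23.1% instead of 50.5% (erastin) in sh-IGFBP6 cells, 31.9% instead of 46.7% for erastin in sh-LUC cells, 63.1% instead of 50.6% and 73.5% instead of 51.8% for DHA over erastin in sh-IGFBP6 and sh-LUC cells, and 26.5% instead of 50.6% for the DHA response. DESeq2 called 1555 genes for DHA in sh-LUC cells, 2422 for DHA over erastin in sh-IGFBP6 cells and 2068 for the DHA response, and the cause was not tested. Leaving out 1 library gave 2592 to 4029 genes for DHA over erastin in sh-IGFBP6 cells, lowest without sh-IGFBP6 erastin replicate 1. Members called ranged over 8 to 8 (untreated lines), 5 to 6 and 6 to 8 (DHA), 4 to 6 and 4 to 6 (erastin, sh-IGFBP6 and sh-LUC), 2 to 4 (DHA response) and 5 to 8 (erastin response). Same-numbered replicates deviated together in some pairs and not in others (correlations -0.102 to 0.154). Correlations this weak cannot decide whether the numbers pair the libraries. With a replicate block 1 member call changed, ITGAV in the erastin response (0.26, adjusted p = 0.0344). Depth limits ITGB3 in sh-IGFBP6 cells, where a library held 0 to 14 counts.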

Other observations

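ITGB1-DT, a noncoding RNA transcribed from the opposite strand next to ITGB1 and chosen here after its values were seen, was higher in sh-IGFBP6 libraries where ITGB1 was lower. It had 6.02, 5.40 and 6.89 CPM in sh-IGFBP6 control cells and 2.12, 1.80 and 3.83 CPM in sh-LUC control cells. With DHA it stood at 9.31, 7.56 and 13.3 CPM in sh-IGFBP6 cells and 2.16, 4.86 and 3.41 CPM in sh-LUC cells, and with erastin at 9.45, 9.03 and 19.0 CPM in sh-IGFBP6 cells and 3.34, 1.73 and 1.92 CPM in sh-LUC cells. The libraries of the lines did not overlap under any of the 3 treatments. In control cells the same held for 67.3% of all genes tested, and no such share between the lines was taken with DHA or erastin. Counts were 20, 28 and 28 in sh-IGFBP6 control and 6, 6 and 16 in sh-LUC control libraries, 42 exon bases are shared with ITGB1 on the opposite strand, and no test was made. The third sh-IGFBP6 erastin value rests on 5 counts.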
